A study of Homo sapiens with 9 samples.

Results

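Long intergenic noncoding RNAs (lincRNAs) that were measurable in Jurkat cells were followed after nanosecond electrical pulses and after heat shock. A gene was included when its symbol on the array platform was LINC followed by digits and when its brightest probe set had a mean log2 signal of at least 7 over the 9 arrays, which is 128 MAS5 signal units. Of 839 LINC genes on the platform, 91 passed, and 748 lay below that signal. The genes were thus selected on their mean signal over all arrays, and their levels are a description. The level is a mean over arrays of all groups, so a gene can pass through the group in which it is high.

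Jurkat, here its Clone E-6, is an established human T lymphocyte line. The series held 3 groups of 3 arrays each. The sham group went into an electroporation cuvette for a sham exposure, the nsEP group received 100 pulses of 10 ns at 150 kV/cm, and the heat shock group was heated. RNA from every group was taken 4 h after exposure. No group carries a transgene or drug, and all 9 samples stand for 1 clone of 1 line. The labels name the arrays biological replicates but not the separate cultures behind them, so p-values measure the spread between these arrays. The design asks whether the pulses change the transcriptome and whether any change is also seen with heat.

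LincRNAs are transcribed by RNA polymerase II from stretches between protein-coding genes. They are capped and usually spliced and polyadenylated like messenger RNAs, but they hold no long open reading frame. Most are made at low levels and in few cell types, many stay in the nucleus, and unstable ones are removed there by the RNA exosome. Some act on the gene next to them, others as scaffolds for proteins, and most have no assigned function. LINC symbols are serial numbers, given where no function or neighbour supplied a name.

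The T cell markers were present, with 11 of 11 at a mean log2 signal of at least 7. Of 7 measured myeloid markers 1 reached that signal, and of 5 B cell markers 2 did. The summed myeloid marker signal ranged from 8.46 to 8.67 on the log2 scale in sham, from 8.47 to 8.76 in nsEP and from 9.29 to 9.63 after heat shock, and its part in the results was not tested. After heat shock 3 of the 11 T cell markers fell, CD2 by 1.79 ± 0.17, CD28 by 1.01 ± 0.19 and TRAT1 by 2.16 ± 0.32. That is 27.3%, beside 5.71% of all genes and 9.28% of genes with a mean log2 signal of at least 7. The other T cell markers did not pass the limma test and ran from −0.57 ± 0.19 for CD247 to 0.38 ± 0.20 for CD3D. The median log2 ratio of the 11 was −0.03. The myeloid marker CD14 rose from a mean of 2.29 to 7.07. HSPA6, a heat shock chaperone that is nearly silent in unstressed cells, had log2 signals of 14.93 to 14.99 on the heat shock arrays, 5.82 to 6.44 on the sham arrays and 6.74 to 8.05 on the nsEP arrays. The nsEP replicate 3 array stood apart on the second principal component, at −172.6 against −30.6 to 62.6 for the other 8 arrays. In bulk RNA, fewer cells with a transcript and less of it per cell cannot be told apart.

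Few LINC genes reached the signal that most genes reached. The share was 10.8% of LINC genes against 54.1% of all 19775 genes. The 91 had mean log2 signals between 7.001 and 11.01 with a median of 7.79, and the 10707 genes that passed the same level had a median of 9.89. Only 38 of the 91 lay at 8 or above, 16 at 9 or above and 7 at 10 or above. The brightest 8 probe sets read LINC00621 (11.01), LINC01260 (10.52), LINC01215 (10.30), LINC01806 (10.14), LINC02910 (10.10), LINC01128 (10.05), LINC00339 (10.02) and LINC01003 (9.91). Probe sets bind their targets with unequal strength, so these signals do not order the amounts of RNA.

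The level divides a continuous range. The 3 genes just inside were LINC01599 (7.06), LINC01134 (7.05) and LINC00244 (7.001), and the 3 just outside were LINC02790 (6.999), LINC01566 (6.99) and LINC02610 (6.97). All 3 group means were at or above 7 for 72 of the 91 genes, and 19 had at least 1 group mean below it, which was the sham mean in 10, the nsEP mean in 10 and the heat shock mean in 4. The median SD between replicates was 0.302 log2 units for the 91, 0.251 for all genes past the level and 0.825 for all 839 LINC genes. RefSeq (GRCh38.p14) listed 90 of the 91 as lncRNA genes, and LINC01296 had no match. They lie on 23 chromosomes, with 12 on chromosome 1, 9 on chromosome 7 and 7 each on chromosomes 2 and 17.

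Heat shock changed 11 of the 91 LINC genes, 8 of them downward. Against sham, LINC01215, LINC01128, LINC02210, LINC00342, LINC00938, LINC02693, LINC00621 and LINC00294 fell, and LINC01004, LINC03068 and LINC01210 rose (limma, adjusted p under 0.05). The 11 are 12.1% of the 91, beside 5.71% of all genes and 9.28% of all genes past the same level. The 8 lower are 8.79%, beside 3.99% of all genes and 7.24% of genes past the level, and the 3 higher are 3.30%, beside 1.72% and 2.05%. The shares lie near those of genes past the same level, which mostly have higher signals, and the shares by range of signal are given below. RefSeq types 468 of those genes as lncRNA, LINC genes included, and 10.5% of them were called, beside 9.20% of 10064 protein-coding genes.

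**Figure D1:**
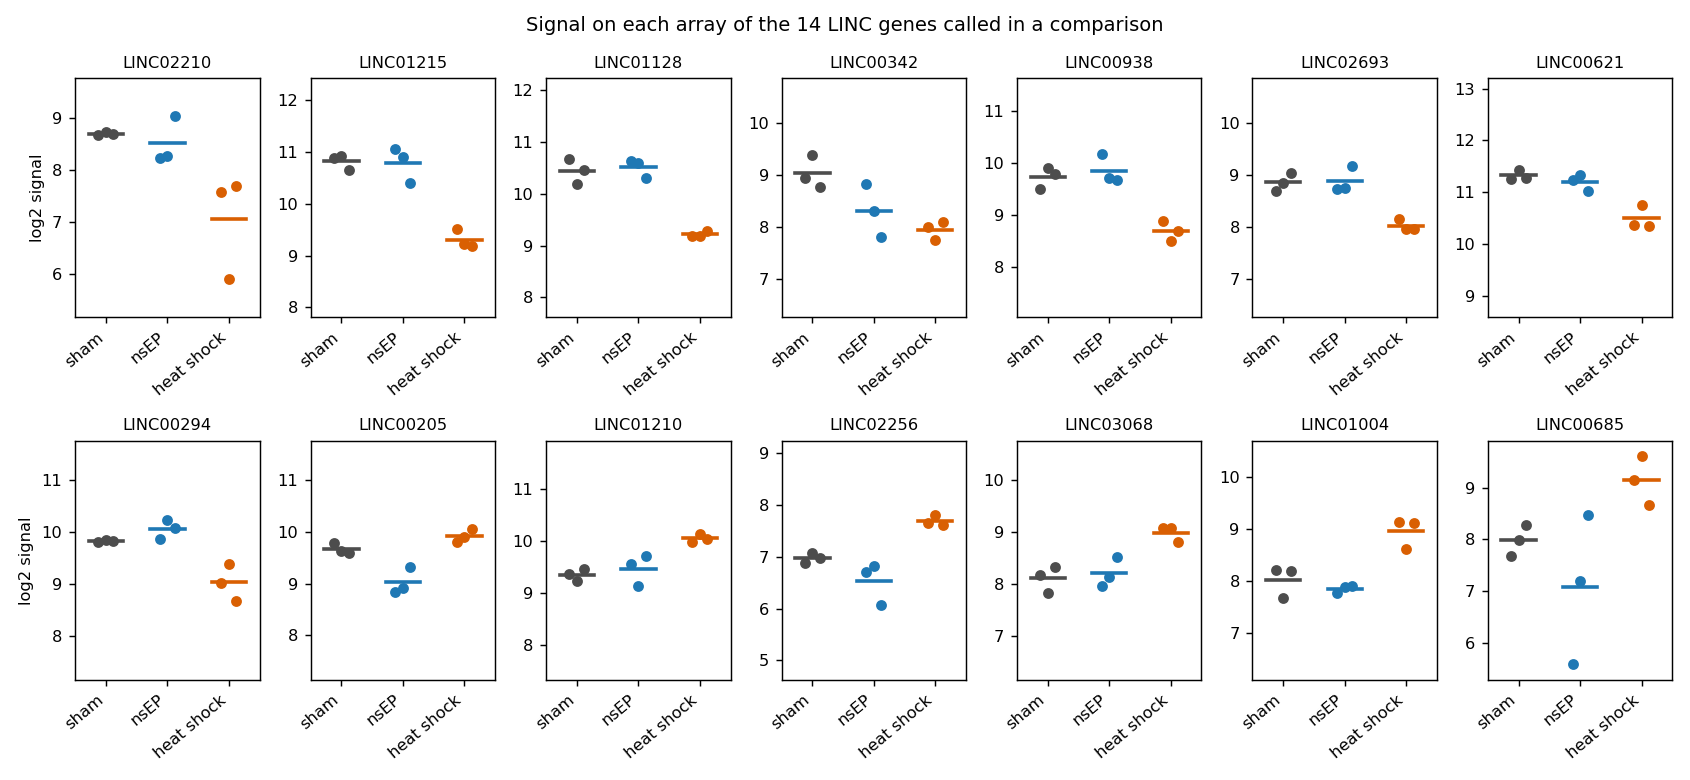
Log2 signal on each of the 9 arrays for the 14 LINC genes that passed the test in at least 1 comparison, with a line at each group mean and axes of equal span. In the first 8 panels the heat shock points lie below the sham points, and in the panels of LINC01210, LINC03068 and LINC01004 they lie above; those 3 rises were called after quantile normalization and not with arrays centred on their medians, which lowers every ratio.

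LINC01215 had the clearest fall. Its log2 signals were 10.89, 10.92 and 10.65 in sham, 11.05, 10.90 and 10.41 after nsEP and 9.51, 9.22 and 9.18 after heat shock. The heat shock arrays lay more than a log2 unit below every sham array and the nsEP arrays overlapped sham. The difference was −1.52 ± 0.19 (SE, n = 3 and 3 arrays), a 2.86-fold fall with an adjusted p of 0.000638. LINC01215 lies on chromosome 3 between CD47, the surface protein that tells phagocytes not to engulf a cell, and IFT57, a part of the transport machinery of cilia.

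LINC01128 came next by its p. Its log2 signals were 10.67, 10.18 and 10.45 in sham, 10.64, 10.60 and 10.31 after nsEP and 9.19, 9.18 and 9.28 after heat shock. The heat shock arrays lay close together and far below the other 6. The difference from sham was −1.22 ± 0.17, a 2.33-fold fall (adjusted p = 0.0013). Its measured coding neighbour is SAMD11, and it lies on chromosome 1.

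LINC00938 and LINC00621 fell by smaller steps that were still well outside the replicate spread. LINC00938 had log2 signals of 9.504, 9.90 and 9.79 in sham, 10.18, 9.71 and 9.67 after nsEP and 8.88, 8.49 and 8.70 after heat shock, a difference from sham of −1.04 ± 0.19 (adjusted p = 0.00963). It lies beside ARID2, a subunit of a SWI/SNF chromatin remodelling complex. LINC00621 had 11.26, 11.43 and 11.28 in sham, 11.23, 11.33 and 11.02 after nsEP and 10.37, 10.76 and 10.36 after heat shock, a difference of −0.83 ± 0.16 (adjusted p = 0.0104). Its only probe set carries the suffix _x_at, which the manufacturer gives where some probes also match other transcripts.

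LINC00294 and LINC02693 also separated the heat shock arrays from the other 6. LINC00294 had log2 signals of 9.81, 9.84 and 9.82 in sham, 9.87, 10.24 and 10.08 after nsEP and 9.02, 9.39 and 8.68 after heat shock, and fell by 0.79 ± 0.19 against sham (adjusted p = 0.0377). It lies between TCP11L1 and CSTF3, a factor for cleavage at the 3′ end of messenger RNAs. LINC02693 had 8.69, 8.84 and 9.03 in sham, 8.73, 8.75 and 9.17 after nsEP and 8.15, 7.95 and 7.95 after heat shock, and fell by 0.84 ± 0.20 (adjusted p = 0.0341).

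LINC02210 and LINC00342 were the less even falls. LINC02210 had log2 signals of 8.67, 8.73 and 8.70 in sham, 8.23, 8.28 and 9.03 after nsEP and 7.57, 5.90 and 7.69 after heat shock. Heat shock replicate 2 lay far below the other heat shock arrays, and the difference was −1.65 ± 0.41 (adjusted p = 0.0411). LINC00342 had 8.93, 9.38 and 8.77 in sham, 8.83, 8.31 and 7.80 after nsEP and 7.99, 7.74 and 8.10 after heat shock, a difference of −1.09 ± 0.27 (adjusted p = 0.0421). Its nsEP arrays spread over the range between the other groups and into both.

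The 3 rises were below 1 log2 unit. LINC01004 had log2 signals of 8.21, 7.66 and 8.19 in sham, 7.77, 7.88 and 7.90 after nsEP and 9.13, 8.61 and 9.12 after heat shock, a difference of 0.93 ± 0.23 (adjusted p = 0.0407). It lies beside KMT2E, a chromatin protein. LINC03068 had 8.18, 7.84 and 8.32 in sham, 7.96, 8.13 and 8.53 after nsEP and 9.07, 9.08 and 8.82 after heat shock, a difference of 0.88 ± 0.22 (adjusted p = 0.0446). LINC01210 had 9.35, 9.22 and 9.47 in sham, 9.56, 9.12 and 9.70 after nsEP and 9.98, 10.12 and 10.04 after heat shock, a difference of 0.70 ± 0.18 (adjusted p = 0.0454). In each of the 3, every heat shock array lay above all 6 others.

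How many LINC genes count as higher or lower moved with the way the arrays are put on 1 scale. The median of all genes was 0.14 log2 units higher after heat shock than in sham as deposited. Centring the arrays on their medians lowered the ratio of every gene, the median of all genes to −0.17. The 3 rises were then no longer called, at 0.63, 0.57 and 0.40 for LINC01004, LINC03068 and LINC01210, and 11 LINC genes, 12.1%, were called lower beside 11.1% of all genes. Scaling to the poly-A spike-in controls, an alternative chosen after seeing the data, lowered every ratio by 1.01, with 12 LINC genes, 13.2%, called lower beside 8.62% of all genes and 0 called higher. A fall can only grow and a rise can only shrink under these scalings, so that neither tests the direction of a single gene. After quantile normalization the median of all genes was 0.00, the 3 rises were still called, and 7 of the 8 falls were, without LINC00294. The mean log2 signal of the spike-ins was 9.92 to 10.90 on the sham arrays, 10.05 to 11.36 on the nsEP arrays and 11.23 to 11.82 on the heat shock arrays, and its part in the results was not tested.

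LINC01215 and LINC01128 remained called without any 1 of the 9 arrays. LINC00938 lost the call only without sham replicate 2, at an adjusted p of 0.0538. The highest adjusted p over the 9 fits was 0.0584 for LINC00621, 0.123 for LINC02210, 0.124 for LINC02693, 0.137 for LINC00294, 0.163 for LINC01004, 0.163 for LINC01210, 0.173 for LINC03068 and 0.175 for LINC00342. Without sham replicate 1, 2 or 3 there were 4, 2 and 4 calls among the 91. Without heat shock replicate 1, 2 or 3 there were 3, 6 and 5, and without nsEP replicate 2 there were 7. Over all genes the calls fell too, from 340 higher and 789 lower. Leaving out a sham or heat shock array gave 177 to 250 higher and 379 to 507 lower. Leaving out nsEP replicate 2 gave 310 and 716. Without nsEP replicate 3, the array that stood apart, the same 11 were called.

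After the electrical pulses no LINC gene was called against sham. Of the 91, 0 passed limma's adjusted p of 0.05, beside 0.0607% of all genes and 0.103% of genes past the level, and 5 had an unadjusted p under 0.05, which is 5.49% beside 5.40% of all genes. The methods' t-test called 0 of the 91 and 0 of all genes, so it could not set LINC genes apart. The log2 ratios ran from −0.98 for LINC01222 to 0.54 for LINC00605, and 80 of the 91 lay within 0.5 of the median of all genes. The sham and nsEP arrays did not overlap for 5 LINC genes with nsEP higher and 7 with nsEP lower, 13.2% together beside 9.96% of all genes and 10.3% of genes past the level. By direction the background over all genes was 4.56% higher and 5.41% lower.

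The 4 LINC genes with the smallest unadjusted p show the size of difference that this spread leaves undecided. LINC00205 had log2 signals of 9.78, 9.64 and 9.58 in sham and 8.83, 8.92 and 9.32 after nsEP, a difference of −0.64 ± 0.17 (adjusted p = 0.374). The nsEP arrays were all below the sham arrays. LINC00957 had 9.06, 8.90 and 9.001 in sham and 9.19, 9.52 and 9.67 after nsEP, a difference of 0.47 ± 0.18 (adjusted p = 0.606). LINC01560 had 8.24, 8.20 and 8.08 in sham and 7.86, 7.72 and 7.43 after nsEP, a difference of −0.50 ± 0.23 (adjusted p = 0.705). In both the groups did not overlap. LINC00342, whose signals stand above, differed by −0.72 ± 0.27 (adjusted p = 0.609), and its groups did overlap.

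The same 0 calls were found under every setting tried and without any 1 array. LINC00205 was read by 7 probe sets, and the next 2 in signal differed by −0.73 and −0.46 between nsEP and sham, the same direction as the first. The 4 dimmer ones gave −0.22 ± 0.37, 0.01 ± 0.37, −1.29 ± 0.57 and 0.93 ± 0.90, in both directions. None of the 7 passed the test.

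When nsEP and heat shock were compared directly, 10 LINC genes differed. LINC01215, LINC01128, LINC00938, LINC00294, LINC02693 and LINC00621 were higher after nsEP, and LINC00685, LINC02256, LINC01004 and LINC00205 were lower. The 10 are 11.0% of the 91, beside 5.99% of all genes and 9.63% of genes past the level. By direction the background was 3.83% higher and 2.16% lower over all genes, and 6.88% and 2.75% past the level. The comparison shares the heat shock arrays with the one against sham, and 7 of the 10 genes were called in both. For the 6 higher genes the differences were 1.48 ± 0.19 for LINC01215 (adjusted p = 0.000689), 1.298 ± 0.17 for LINC01128, 1.16 ± 0.19 for LINC00938, 1.03 ± 0.19 for LINC00294, 0.87 ± 0.20 for LINC02693 and 0.70 ± 0.16 for LINC00621.

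LINC00685, LINC02256 and LINC00205 were called in this comparison only. LINC00205 had log2 signals of 9.79, 9.89 and 10.06 after heat shock, above its nsEP signals on every array, and the difference was −0.89 ± 0.17 (adjusted p = 0.0106). The next 2 probe sets of LINC00205 in signal gave −0.35 ± 0.28 and −0.35 ± 0.18 and were not called. The dimmer ones gave −0.03 ± 0.37, −1.08 ± 0.37, −1.54 ± 0.57 and 0.46 ± 0.90, also not called. LINC02256 had 6.71, 6.83 and 6.06 after nsEP, 6.89, 7.07 and 6.97 in sham and 7.65, 7.80 and 7.60 after heat shock, a difference of −1.15 ± 0.30 (adjusted p = 0.0454). Its 3 groups did not overlap, and its means of 6.98 in sham and 6.53 after nsEP lie below the level, so that it passed the level only through the heat shock arrays. LINC00685 had 5.59, 7.20 and 8.48 after nsEP, 7.68, 7.98 and 8.28 in sham and 9.14, 9.60 and 8.67 after heat shock, a difference of −2.05 ± 0.54 (adjusted p = 0.0496). Its nsEP arrays spread over almost 3 log2 units. Of the 10 LINC genes called in this comparison, 5 had 19 further probe sets, 15 with the same sign and 0 called.

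LINC01004, given above, differed by −1.10 ± 0.23 (adjusted p = 0.0157). Centred arrays raise every ratio in this comparison, and with them 8 LINC genes were called higher, 8.79% beside 10.5% of all genes, and none of the 4 lower genes was called. LINC00205 stood at 0.04 with spike-in scaling. LINC01215, LINC01128, LINC00938 and LINC00294 remained called without any 1 array. LINC02256 lost the call without any of the 9, with adjusted p-values from 0.0628 to 0.132, and LINC00685 kept it only without nsEP replicate 3 (adjusted p = 0.00372). LINC00205 lost it only without heat shock replicate 3 (adjusted p = 0.0579). The highest adjusted p was 0.104 for LINC00621, 0.0884 for LINC02693 and 0.0782 for LINC01004. There were 8 calls without any 1 sham array and 7 without nsEP replicate 1 or heat shock replicate 2. There were 5 calls without nsEP replicate 2, heat shock replicate 1 or heat shock replicate 3, and 11 without nsEP replicate 3. Over all genes the main fit called 758 higher and 427 lower. Without nsEP replicate 3 these were 963 and 826. Leaving out any other array gave 379 to 628 higher and 208 to 380 lower.

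As a group the LINC genes lay close to the median of all genes, and after heat shock above that of genes past the same level. Against sham their median log2 ratio after heat shock was 0.20 and that of all genes 0.14, so that the LINC genes lay 0.06 above it, while genes past the same level lay at −0.14 relative to it. After nsEP they lay 0.03 below the median of all genes (relative median −0.03), and in nsEP against heat shock the relative median was −0.01. After heat shock 65 of the 91 were within 0.5 of the median of all genes and 9 were at least 1 away. The heat shock and sham arrays did not overlap for 24 LINC genes with heat shock higher and 13 with heat shock lower, 40.7% together beside 31.2% of all genes and 40.8% of genes past the level. By direction the LINC genes had 26.4% higher and 14.3% lower, all genes 17.5% and 13.7%, and genes past the level 17.7% and 23.1%. This difference from genes past the level was not tested. The counts of higher genes are drawn in part from the selection. The sham mean lay below the level in 10 LINC genes and the heat shock mean in 4. LINC02256, for one, passed only through its heat shock arrays. The genes past the level were selected by the same mean.

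**Figure D2:**
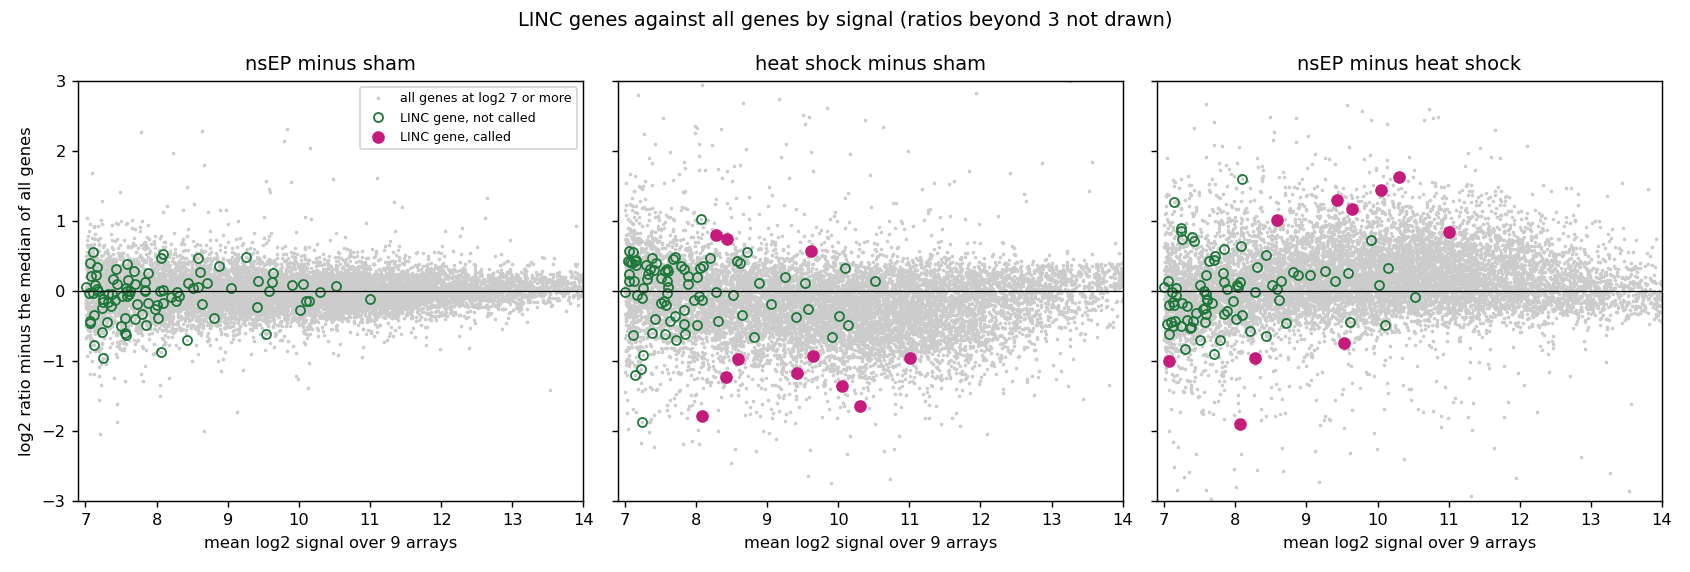
Log2 ratio minus the median of all genes against mean log2 signal in the 3 comparisons, for the 91 LINC genes and, in grey, all genes with a mean log2 signal of at least 7. The LINC genes crowd at the left end of the signal axis, and filled points are those called, 0, 11 and 10 from left to right. Points beyond 3 log2 units are not drawn.

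What happened to a LINC gene after heat shock differed with its signal. Among the 53 LINC genes with a mean log2 signal of 7 to 8, 0 were called, beside 4.22% of all genes in that range, and their median log2 ratio was 0.28 beside 0.19. Among the 22 at 8 to 9, 2 rose and 3 fell, 22.7% beside 7.03%. Among the 16 at 9 to 12, 1 rose and 5 fell, 37.5% beside 12.7%, and their median log2 ratio was −0.23 beside −0.12. Dim probe sets scatter more, with a median SE of 0.30 at 7 to 8 and 0.18 at 9 to 12. Restricting the group to the 38 at 8 or above turned the median relative to all genes from 0.06 to −0.10. On the same measure, all genes at 8 to 9 lay at −0.15 and those at 9 to 12 at −0.26. The bins are small, and no test of the difference between LINC genes and other genes was made.

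**Figure D3:**
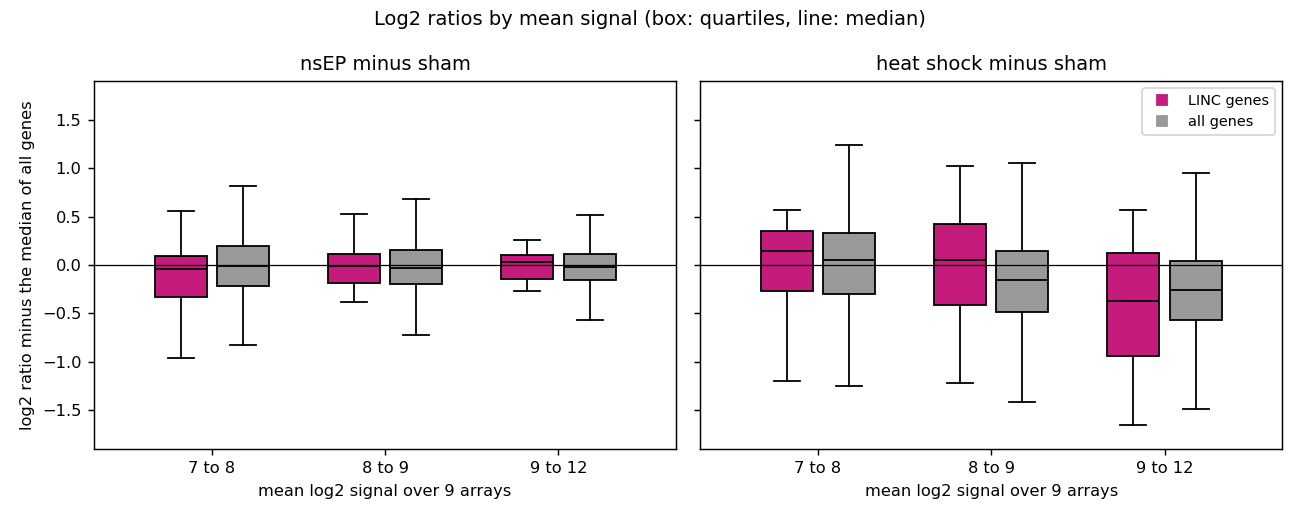
Log2 ratio minus the median of all genes for LINC genes and for all genes in 3 ranges of mean log2 signal, for nsEP and for heat shock against sham. Boxes span the quartiles with a line at the median, whiskers reach the farthest value within 1.5 box lengths, and the LINC gene boxes hold 53, 22 and 16 genes; after heat shock the boxes move down as the signal rises.

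The further probe sets of the LINC genes called after heat shock mostly had the same sign, and none was called. The 91 LINC genes were read by 181 probe sets, and 49 had more than 1. Of the 11 called after heat shock, LINC01215, LINC00621, LINC00294 and LINC03068 had 1 probe set, and the other 7 had 20 further probe sets, of which 0 were called and 14 had the same sign. Past a mean log2 signal of 7 there were 8 further probe sets of 4 genes, 6 with the same sign. Among the LINC genes not called, 42 of 70 further probe sets had the same sign, and 8 of 16 past that signal.

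Those 8 and the dim ones of LINC01128, LINC00938 and LINC01004 are given here. LINC01128 had a second probe set at a mean log2 signal of 8.995 with −0.75 ± 0.31, and the next ones gave −0.17 ± 0.28 and −0.20 ± 0.38. The 2 dim ones gave −1.76 ± 0.60 and −0.87 ± 0.75, so that all 5 pointed down beside the −1.22 of the brightest. The dim ones of LINC00938 gave 0.17 ± 0.34, −0.47 ± 0.42 and 0.61 ± 0.87, in both directions, beside −1.04 on its brightest. The dim ones of LINC01004 gave 1.31 ± 0.76 and 1.23 ± 0.81 beside 0.93, all upward. LINC02210 had −0.20 ± 0.22 on its second probe set beside −1.65 on the first, at nearly equal mean signals of 7.94 and 8.09. LINC02693 had −0.24 ± 0.23 and −0.13 ± 0.26 beside −0.84. LINC00342 had 0.40 ± 0.46 and 0.43 ± 0.70 beside −1.09, so that its probe sets pointed in opposite directions. Probe sets of 1 gene can read different transcript isoforms or ends, and which isoform each reads was not tested.

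**Figure D4:**
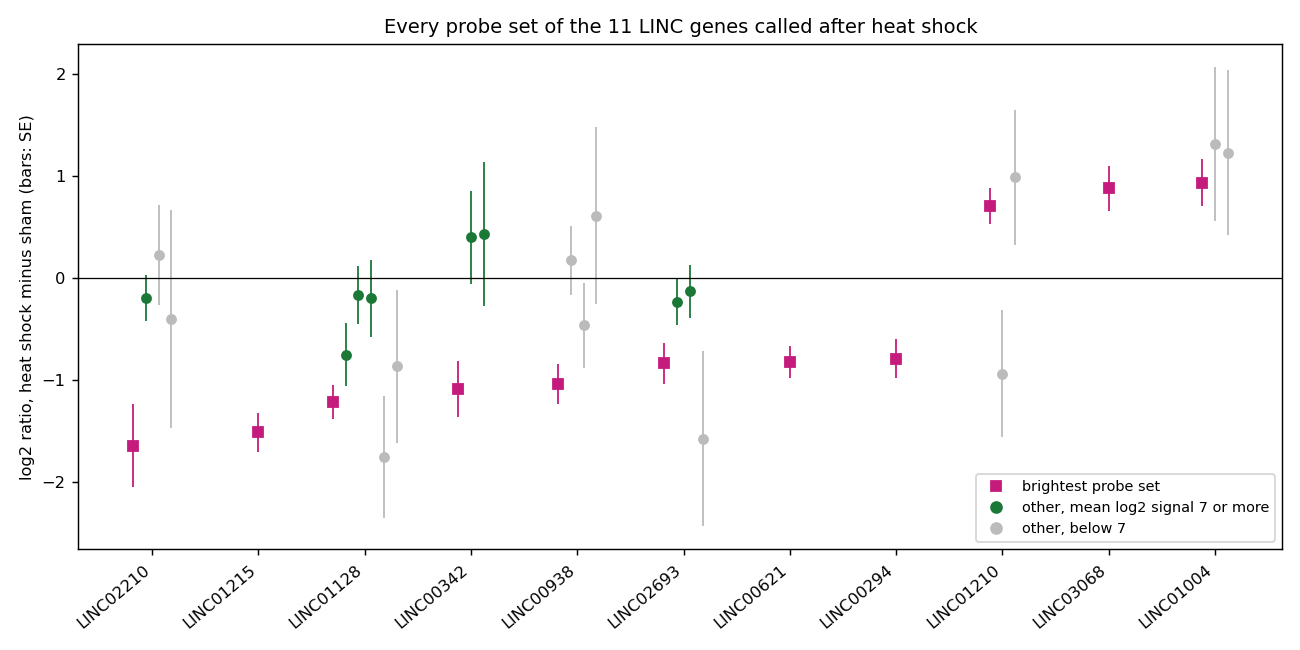
Log2 ratio of heat shock to sham, with its SE, for every probe set of the 11 LINC genes called after heat shock, the brightest probe set as a square and the others as circles, grey where the mean log2 signal was below 7. The squares of the 8 lower genes lie at −0.79 to −1.65 while the green circles lie between −0.75 and 0.43; the 3 squares above 0 are the rises, which were not called with centred arrays.

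Over all 18 LINC genes whose second probe set also passed the level, the pair had the same sign in 12 after nsEP and in 10 after heat shock. The median difference within a pair was 0.18 log2 units after nsEP and 0.43 after heat shock. Across the 18 pairs, which share their arrays, Pearson's r was 0.67 and 0.34. Among all 90 further probe sets 1 was called, the second of LINC01134, a gene just inside the level, which rose by 1.92 ± 0.45 after heat shock at a mean log2 signal of 6.22 (adjusted p = 0.03). The brightest probe set of LINC01134 gave 0.57 ± 0.40. With the mean of all probe sets of a gene in place of the brightest, 5 LINC genes were called after heat shock, LINC03068 higher and LINC00294, LINC00621, LINC01215 and LINC02987 lower. LINC01128 was not among them.

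Below the level, 748 LINC genes held 6 calls after heat shock, 0.802%, and 0 after nsEP. The 5 higher were LINC01554, LINC01647, LINC01664, LINC02593 and LINC00895, and LINC01355 was lower. LINC01554 went from a mean log2 signal of 2.69 in sham and 5.33 after nsEP to 6.97 after heat shock, a rise of 4.28 ± 0.61 (adjusted p = 0.00173). LINC01647 went from 3.80 and 5.08 to 6.9999, a rise of 3.199 ± 0.49 (adjusted p = 0.00267). LINC01355 went from 7.65 and 6.96 to 5.07, a fall of 2.58 ± 0.51 (adjusted p = 0.0132). The widest ratios after nsEP among all LINC genes were of such dim genes, −3.57 ± 0.78 for LINC00644 and 3.12 ± 0.69 for LINC00488, and did not pass the test (adjusted p = 0.216 and 0.223).

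The coding genes next to the LINC genes showed no shared direction with them over all pairs. For 90 LINC genes placed by RefSeq (GRCh38.p14), the nearest measured coding gene had the same sign of log2 ratio in 44 after nsEP and in 47 after heat shock. Pearson's r over the 90 pairs was −0.03 after nsEP and −0.0003 after heat shock, and for the 56 pairs within 100 kb it was −0.08 and −0.07. The pairs share their arrays, and some share a neighbour, so these values describe the pairs. Of the 90 neighbours 1 was called higher and 9 lower after heat shock, 11.1% beside 5.71% of all genes. The neighbours were taken from coding genes past the level, of which 9.20% were called, so that their share lies near that background.

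**Figure D5:**
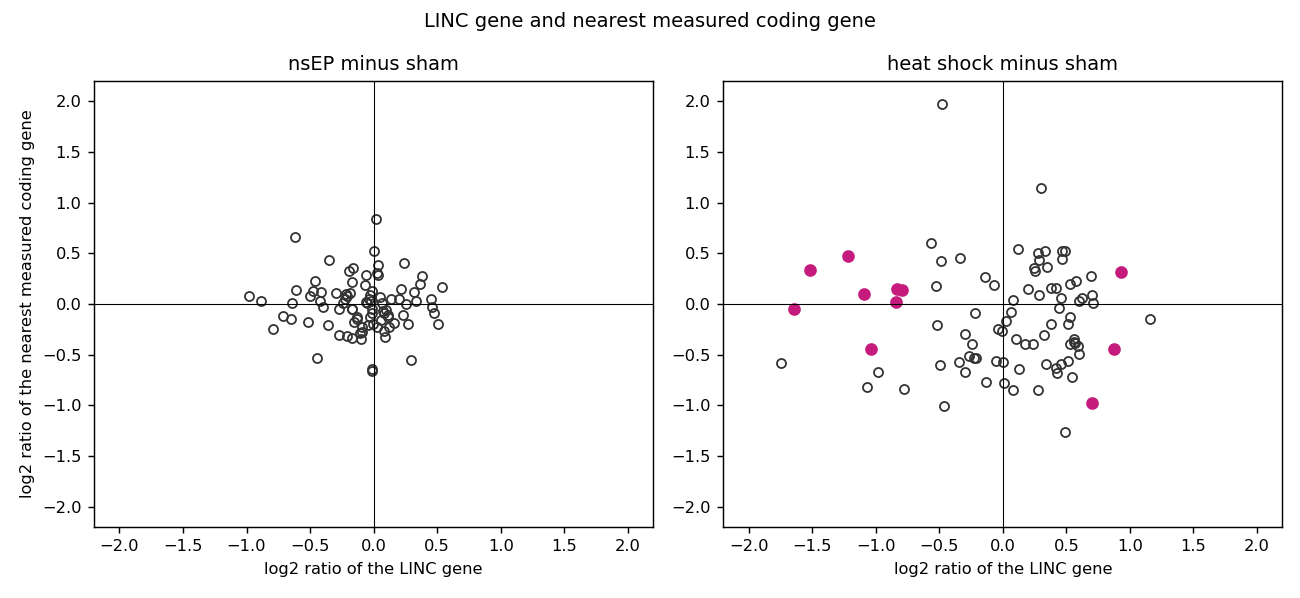
Log2 ratio of each LINC gene against that of its nearest measured coding gene, for nsEP and for heat shock against sham, 90 pairs a panel, with the LINC genes called after heat shock filled. Points fill all 4 quadrants, and the nsEP panel is the narrower in both directions.

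Neighbours of some of the called LINC genes are given here by name, without a share called, so they are examples. A neighbour here is a measured coding gene that overlaps the LINC gene or lies nearest on either side, at any distance. The neighbours of LINC01215 stood at 0.24 ± 0.21 for CD47 and 0.33 ± 0.25 for IFT57 after heat shock, while LINC01215 itself fell. SAMD11 beside LINC01128 stood at 0.47 ± 0.29 and ARID2 beside LINC00938 at −0.44 ± 0.18. None of these passed the test. CSTF3 fell together with LINC00294, by 0.66 ± 0.17 (adjusted p = 0.049), and TCP11L1 on its other side stood at 0.14 ± 0.26. DBR1, the enzyme that opens intron lariats, fell by 0.98 ± 0.16 while LINC01210 rose as deposited. KLF13, a transcription factor of T cells that lies next to LINC02256 among measured genes, fell by 0.78 ± 0.16 (adjusted p = 0.019). S100P, a calcium-binding protein, rose by 1.97 ± 0.29 next to LINC02481, which stood at −0.48 and was not called. LINC02481 was picked out after its neighbour's value was seen.

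Promoter sequences, 250 bases before to 50 after the start, were found in RefSeq (GRCh38.p14) for 66 of the 91. Both strands were searched for 5 short motifs of stress and immediate early transcription factors. The heat shock element, searched as GAANNTTC or TTCNNGAA, was in 11 of the 66, or 16.7%, beside 13.7% of all 27305 promoters. The AP-1 motif TGANTCA was in 5, or 7.58%, beside 7.76%, the CRE motif TGACGTCA in 1, or 1.52%, beside 1.98%, the EGR motif GCGNGGGCG in 3, or 4.55%, beside 9.28%, and the CARE motif TTGCATCA in 1, or 1.52%, beside 0.923%. Median GC content was 58.3% in both sets. The shares of LINC promoters were near those of all promoters for the heat shock element, AP-1 and CRE motifs. The EGR share was lower, on 3 promoters, and the CARE share rests on 1 promoter. A match of so few letters is a description of the window.

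Of the 14 called LINC genes 10 had a promoter sequence, and 4 of these held a motif. LINC01215, which fell, held a heat shock element and an AP-1 motif, LINC02210, which fell, held a heat shock element, LINC03068, which rose as deposited and not with centred arrays, held a heat shock element, and LINC00685, called in nsEP against heat shock, held an EGR motif. The 3 genes with a heat shock element thus moved in both directions. These 4 promoters are shown with the motifs in capitals, and that of LINC01210, a gene that rose as deposited and holds none of the motifs, stands last.
LINC01215 (chr3:108125571-108125870, plus strand): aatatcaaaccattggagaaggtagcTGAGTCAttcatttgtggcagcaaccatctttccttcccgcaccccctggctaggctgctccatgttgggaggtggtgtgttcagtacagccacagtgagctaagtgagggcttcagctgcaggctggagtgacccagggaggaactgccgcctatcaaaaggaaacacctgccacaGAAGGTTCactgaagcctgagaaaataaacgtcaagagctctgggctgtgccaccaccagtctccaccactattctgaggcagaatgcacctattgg
LINC02210 (chr17:45620079-45620378, plus strand): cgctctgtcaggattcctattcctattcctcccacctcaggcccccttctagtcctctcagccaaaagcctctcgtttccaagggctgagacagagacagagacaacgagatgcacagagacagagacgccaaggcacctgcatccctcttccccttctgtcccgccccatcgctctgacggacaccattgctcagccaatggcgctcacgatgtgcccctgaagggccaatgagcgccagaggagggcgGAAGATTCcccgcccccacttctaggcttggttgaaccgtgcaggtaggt
LINC03068 (chr10:132444933-132445232, minus strand): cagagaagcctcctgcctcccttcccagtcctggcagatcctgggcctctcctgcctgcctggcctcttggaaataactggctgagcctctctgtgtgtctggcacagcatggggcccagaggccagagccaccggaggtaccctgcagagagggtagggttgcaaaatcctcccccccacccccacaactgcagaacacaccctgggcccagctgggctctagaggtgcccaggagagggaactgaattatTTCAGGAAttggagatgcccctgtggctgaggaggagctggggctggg
LINC00685 (chrX:318895-319194, plus strand): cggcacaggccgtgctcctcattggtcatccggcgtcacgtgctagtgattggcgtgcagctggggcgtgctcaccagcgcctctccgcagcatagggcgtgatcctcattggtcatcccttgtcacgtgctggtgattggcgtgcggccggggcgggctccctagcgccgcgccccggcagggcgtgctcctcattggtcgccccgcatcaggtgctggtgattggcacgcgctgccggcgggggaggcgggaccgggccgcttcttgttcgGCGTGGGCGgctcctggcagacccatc
LINC01210 (chr3:137771661-137771960, plus strand): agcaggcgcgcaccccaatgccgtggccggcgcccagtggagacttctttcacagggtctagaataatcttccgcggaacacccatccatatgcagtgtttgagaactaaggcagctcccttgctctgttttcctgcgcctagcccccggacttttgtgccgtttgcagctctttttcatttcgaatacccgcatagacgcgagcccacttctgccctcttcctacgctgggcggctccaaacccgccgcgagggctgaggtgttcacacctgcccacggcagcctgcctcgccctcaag

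The promoters of LINC00205, LINC00294, LINC00621, LINC00938 and LINC02256 held none of the 5 motifs. LINC01128, LINC00342, LINC02693 and LINC01004 are named only.

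Long noncoding RNAs with their own names were looked at beside the LINC genes. Of 33 listed, 24 were measured. By limma 0 were called after nsEP, beside 0.0607% of all genes, and after heat shock 2 rose and 4 fell, 6 of the 24, beside 5.71% of all genes and 9.28% of genes past the level. DLEU2, the host of a microRNA cluster, fell by 1.62 ± 0.23, NORAD, which binds PUMILIO proteins, fell by 0.93 ± 0.15, OIP5-AS1 fell by 0.76 ± 0.19 and TUG1 fell by 0.62 ± 0.14. RPPH1, the RNA of ribonuclease P, rose by 6.24 ± 0.32 from a mean log2 signal of 5.83 in sham and 6.13 after nsEP to 12.08 after heat shock. RPPH1 is made by RNA polymerase III and carries no poly-A tail, unlike most lincRNAs. ZFAS1, a host of small nucleolar RNAs, rose as deposited by 0.82 ± 0.19 after heat shock and stood at 0.91 ± 0.19 after nsEP (adjusted p = 0.195). EPB41L4A-AS1, picked out after its values were seen, stood at 0.83 ± 0.14 after nsEP (adjusted p = 0.0654) and 0.29 ± 0.14 after heat shock.

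After heat shock, called genes of the exosome list fell, and called Integrator genes moved in both directions as deposited. Of 22 measured genes of the RNA exosome and its nuclear adaptors, 0 rose and 4 fell, 18.2% beside 5.71% of all genes and 9.28% of genes past the level. The 4 were EXOSC6 (fell by 1.34 ± 0.17), NRDE2 (fell by 1.04 ± 0.23), C1D (fell by 0.70 ± 0.15) and TENT4A (fell by 0.64 ± 0.14). EXOSC6 belongs to the ring of the exosome, NRDE2 restrains its helicase partner, C1D is a cofactor of its nuclear form, and TENT4A adds tails to RNAs. Of 14 Integrator genes, whose complex ends noncoding RNA polymerase II transcripts early, INTS4 rose by 0.78 ± 0.15 and INTS6 by 0.70 ± 0.18, and INTS5 fell by 1.10 ± 0.23, INTS9 by 1.03 ± 0.18 and INTS2 by 0.75 ± 0.18, which is 35.7% of the 14. The rises of INTS4 and INTS6 are as deposited and smaller than the 1.01 by which spike-in scaling lowered every ratio. Of 10 paraspeckle protein genes 0 were called by limma in any comparison. After nsEP 0 genes of these lists were called. Whether these genes bear on the LINC genes was not tested.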

How the data were processed

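RNA of 9 Jurkat samples was hybridised to Affymetrix HG-U133 Plus 2.0 arrays. The deposited table holds log2 values that the authors made from MAS5 signals. MAS5, named in the submitters' processing notes, brings arrays to 1 trimmed mean signal, which was 499.9 on every array with 2% trimmed at each end. Nothing in the table is filtered, and detection calls were not used here. No genome build is named for the table, and its 54675 probe sets were named through the platform annotation. After 62 control probe sets were left out, 54613 were tested, of which 41091 had 1 symbol and 1801 several. A gene stood for its brightest probe set with 1 symbol.

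Groups came from the sample titles. The values as deposited were fitted over all 9 arrays with limma 3.58.1 (R 4.3.3, eBayes with trend, two-sided), with Benjamini-Hochberg adjustment over all tested probe sets and a threshold of 0.05. With 3 arrays against 3 an exact permutation test cannot go below p = 0.1, so single values were given the limma test alone. Ratios relative to all genes subtract the median over 19775 genes. The fit was checked on simulated data. The named genes are those called in a comparison, the 4 of smallest p where fewer than 4 were called, and the 8 brightest. Also named are the 3 on each side of the level, neighbours of some called genes, and up to 4 called genes of each further list. The LINC genes and all lists were chosen with earlier results of these data known. Neighbours and promoters are from RefSeq tables (GRCh38.p14), used for names and sequence. Alternatives were other scalings, an offset of 32 signal units, filters, test forms, member levels and leaving out each array. The precision is limited by the number of arrays.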

Additional observations from a re-analysis of the deposited data

How the results depend on the processing

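No setting called a LINC gene in nsEP against sham, where few of all genes were called under any setting. The main counts were 11 for heat shock (against sham) and 10 for nsEP (against heat shock). Without the variance trend they were 2 and 2, LINC01215 and LINC01128 each time. Over all genes that fit called 185 higher and 167 lower after heat shock, and 170 and 219 in nsEP against heat shock. The methods' t-test called 0 and 0, with 25 and 18 at an unadjusted p under 0.05. Over all genes it called 83 higher and 103 lower after heat shock, and 27 and 33 in nsEP against heat shock. With only the 6 arrays of a comparison the LINC counts were 11 and 6, and with the mean of all probe sets 5 and 7. Over all genes the fits to 6 arrays called 442 higher and 942 lower, and 484 and 329. The fit to probe set means called 387 and 482, and 490 and 441. Leaving out single arrays gave 2 to 11 and 5 to 11 LINC genes. The LINC medians relative to all genes then ran from 0.02 to 0.10 after heat shock and from −0.07 to −0.02 after nsEP. In nsEP against heat shock they ran from −0.09 to 0.00. With the level at 8 the LINC medians were −0.10 after heat shock and 0.13 in nsEP against heat shock. In the same order, all genes at 8 to 9 lay at −0.15 and 0.12, and those at 9 to 12 at −0.26 and 0.22. With no level the LINC medians were 0.25 and −0.22. Then 17 LINC genes were called after heat shock, 2.03% of 839 beside 5.71% of all genes.

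Scaling to the spike-ins lowers every heat shock ratio by 1.01, so that any smaller rise turns. It reversed LINC01004 (−0.0778), LINC01210 (−0.31) and LINC03068 (−0.13) after heat shock and LINC00205 (0.0396) in nsEP against heat shock. Over the named results 345 alternatives kept direction and call, 151 lost the call and 4 reversed. The 345 include every alternative for the 4 named genes of nsEP against sham, which were not called and had no call to lose. Deviations of arrays with the same replicate number correlated between −0.16 and 0.21, so the numbers were not taken as pairs. In the fit with a replicate block, the counts were 0, 10 and 10, LINC00342 and LINC03068 were no longer called after heat shock and LINC02256 no longer in nsEP against heat shock, and LINC01222 was newly called lower after heat shock and LINC02210 newly higher in nsEP against heat shock.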
